A study of Arabidopsis thaliana with 12 samples.

Results

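Histone genes are the subject of this report: 42 of the 34262 genes in a table of raw RNA-seq counts from Arabidopsis seedlings, taken by their locus identifiers. They comprise 3 genes of the linker histone H1, 12 of H2A, 10 of H2B, 9 of H3 and 8 of H4. The H2A genes fall into 4 of the canonical form, 2 of H2A.X, 3 of H2A.W and 3 of H2A.Z. The H3 genes fall into 5 of H3.1, 3 of H3.3 and the single gene of the centromeric form, CENH3. All 42 were present in the table and in the TAIR10.1 annotation, which calls some by symbol and the others by locus identifier only.

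The study asked how the stem cell factor WUSCHEL (WUS) acts on transcription and whether histone deacetylases take part in it. Whole seedlings, 5 days after germination, were treated for 2 h, and RNA was sequenced from 3 replicates of each of 4 groups. WUS-GR seedlings carried a transgene in which the ubiquitously active promoter pUBI10 (pUBQ10 in the study's methods) drives mCherry and WUS fused to the glucocorticoid receptor domain GR, which keeps the protein out of the nucleus until dexamethasone (DEX) is given. Col-0 is the wild type without that transgene. The groups were WUS-GR with DEX and trichostatin A (TSA), Col-0 with DEX and TSA, WUS-GR with DEX alone and Col-0 with DEX alone. TSA, an inhibitor of class I and class II histone deacetylases, was used at 1 µM. DEX was given to both genotypes, at 25 µM by the labels and at a lower dose by the study's methods. No libraries of WUS-GR without DEX were analysed here, so carrying the transgene and activating it cannot be told apart. The labels do not say whether replicates came from separate cultures, so the p-values measure the spread between these libraries.

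DNA in the nucleus is wound around octamers of H2A, H2B, H3 and H4, and H1 binds the linker DNA between them. Canonical H2A, H2B, H4 and H3.1 are made mainly in S phase, when newly copied DNA has to be packaged. The variants H3.3 and H2A.Z are made and exchanged throughout the cell cycle: H3.3 marks transcribed genes, and H2A.Z sits at the first nucleosomes of genes and in the bodies of responsive genes. H2A.W is a plant variant of heterochromatin, and H2A.X is the form that is phosphorylated at DNA breaks.

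Total counts per library ran from 14810658 to 21578662. WUS itself had 94664 to 142276 counts with the transgene and 27 to 52 in Col-0, as labelled. Scaling factors by the trimmed mean of M values (TMM) were 0.842 to 0.850 in WUS-GR with TSA and 0.981 to 1.13 in the other libraries. All 9 mesophyll genes on a marker list were detected, whereas 4 root hair markers (SHV2, EXPA7, EXPA18 and LRX1) had 0 or 1 count in each library, although root endodermis genes were present. The mesophyll genes and the root genes moved with the groups as well. Of 9 mesophyll genes, 6 were higher and 2 lower in WUS-GR than Col-0 without TSA, and 5 and 2 with it. Over all tested genes, 29.3% were higher and 28.6% lower without TSA, and 27% and 27.8% with it. With TSA, 8 of 9 mesophyll genes rose in each genotype, against 35.6% of all genes in WUS-GR and 31.7% in Col-0. The 9 mesophyll genes summed to 23866 to 24799 CPM in WUS-GR and 14172 to 17904 CPM in Col-0 with TSA, against 13132 to 16780 CPM in WUS-GR and 10142 to 13628 CPM in Col-0 with DEX alone. The 9 root genes summed to 20.19 to 34.3 CPM in WUS-GR and 18.5 to 26.9 CPM in Col-0 with TSA, against 11.02 to 16.1 CPM in WUS-GR and 16.2 to 20.09 CPM in Col-0 with DEX alone. Between genotypes, 2 of 3 tested root genes were higher and 1 lower in WUS-GR without TSA, with log2 fold changes of -2.14 to 1.98. With TSA, 3 of 4 were higher and 1 lower (-1.99 to 3.96), so the sums hide opposite changes. The part of the mesophyll and root genes in the histone results was not tested. In bulk seedlings, fewer cells of a type and less RNA per cell cannot be told apart.

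Levels are given as CPM, the count of a gene scaled to the TMM-normalized size of its library, and levels of different genes are compared only per kilobase (kb) of exon. In Col-0 with DEX alone, the H2A.Z gene HTA9 (263 ± 38.3 CPM per kb, SD, n = 3) and the H3.3 gene AT4G40040 (209 ± 20.8 CPM per kb) stood highest. The other H3.3 genes, AT4G40030 (105 ± 9.85 CPM per kb) and AT5G10980 (78.4 ± 2.26 CPM per kb), came next. The most abundant H3.1 gene, AT5G65360, had 4.51 ± 0.485 CPM per kb. At the other end, the H2B gene AT5G02570 had 0 counts in all 12 libraries, where 3 counts would be 0.131 to 0.240 CPM. It lies wholly within HTA12 on the other strand (522 bp), and the strand setting of the counting is not given in the sources used here. The H2B gene AT3G53650 and the H4 genes AT3G45930 and AT3G46320 had at most 16 counts in a library and were tested nowhere.

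Seedlings given TSA had more histone mRNA than seedlings without it, in both genotypes. The summed level of all 42 genes was 2546, 2259.7 and 2481 CPM in WUS-GR with TSA and 2448, 2039 and 2342 CPM in Col-0 with TSA, against 1157, 1082 and 1268 CPM in WUS-GR and 1126, 995 and 912 CPM in Col-0 with DEX alone. The libraries with TSA were all above those without it. Between genotypes the total in CPM overlapped within each treatment. As a share of all counts, with no TMM scaling, the 42 genes made up 0.205% ± 0.0117 in WUS-GR and 0.228% ± 0.0201 in Col-0 with TSA, against 0.131% ± 0.00938 in WUS-GR and 0.107% ± 0.0128 in Col-0 with DEX alone (SD, n = 3 each). The ratio of these shares, with TSA over without, was 1.57 in WUS-GR and 2.13 in Col-0, against 2.08 and 2.252 for the sums in CPM. For WUS-GR over Col-0 it was 1.22 without TSA and 0.902 with it, against 1.157 and 1.067 for the sums, so the genotype difference depends on the scaling. Without TSA the shares of the WUS-GR libraries (0.122% to 0.141%) were all above those of Col-0 (0.0951% to 0.1205%), and with TSA they overlapped. The low scaling factors of WUS-GR with TSA enter the CPM alone. The classes that make up this total moved unequally, as the plot of summed levels by class shows.

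**Figure D1:**
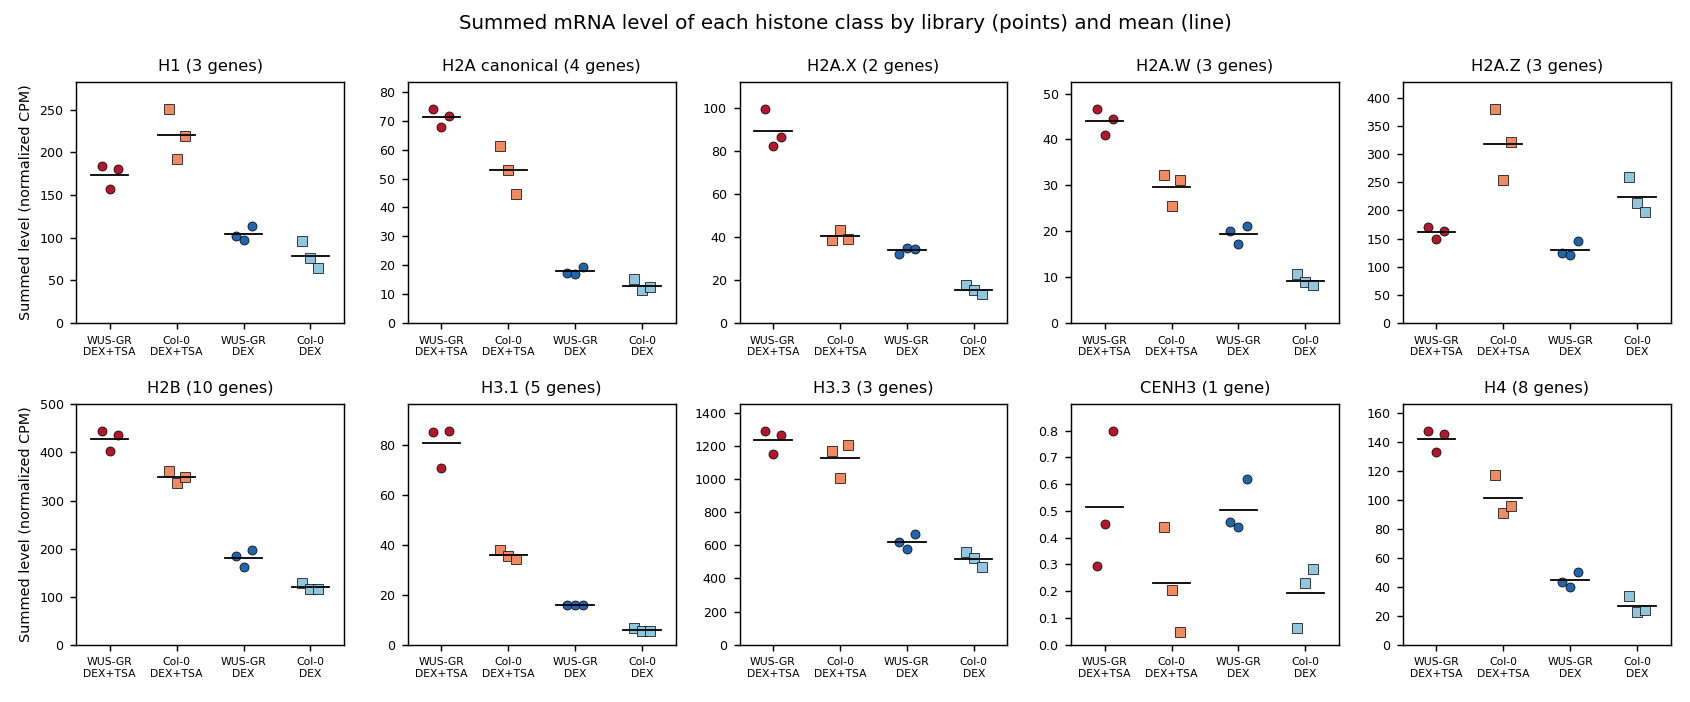
Summed TMM-normalized CPM (vertical axis, from 0) of the genes of each histone class in the 4 groups (horizontal axis); points are the 3 libraries of a group and lines their means. H3.1 sums were highest in WUS-GR with TSA (71.1 to 85.9 CPM) and lowest in Col-0 with DEX alone (5.33 to 6.49 CPM), whereas H2A.Z sums were lower in WUS-GR than Col-0 under both treatments.

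For every gene that passed the filter on low counts, the genotypes were compared without and with TSA, and seedlings with TSA were compared with those without it in each genotype. A gene was called where the quasi-likelihood test of edgeR gave a Benjamini-Hochberg adjusted p under 0.05. A log2 fold change of 1 is a doubling, and values in parentheses are log2 fold changes ± their standard error. Genotype and TSA each moved a large part of the transcriptome, so the counts over the histone genes are given with the share of all tested genes called.

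In Col-0, TSA raised 32 of the 35 tested histone genes, and their median log2 fold change was 1.50. Of all 17271 genes tested, 64.2% were called, 31.7% higher and 32.5% lower, and the median was 0.00. The ranges of the libraries did not overlap for 31 histone genes that were higher, against 33.6% of all genes, and for 0 that were lower, against 35.5%. No histone gene was lower in this comparison, by edgeR or by DESeq2, and none had a negative value at an unadjusted p under 0.05 (0 genes). In WUS-GR, 31 of 37 tested histone genes were higher with TSA and 1 was lower, with a median of 1.17. There, 73.7% of 17079 genes were called, 35.6% higher and 38.1% lower, with a median of -0.03. Ranges did not overlap for 31 histone genes that were higher and 1 that was lower, against 37.1% and 38.8% of all genes. The 31 histone genes that rose in WUS-GR all rose in Col-0 too, where they were 96.9% of the histone genes that rose. How many of all genes rose in both genotypes was not computed, so this overlap cannot be read as a trait of histone genes. The H2A.W gene HTA12 (log2 fold changes 0.04 in WUS-GR and 0.42 in Col-0) and the H4 gene AT1G07660 (0.59 and 0.21) passed in neither genotype. All 32 calls in each genotype held when any 1 library was left out.

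In WUS-GR, 23 of 37 tested histone genes were higher than in Col-0 without TSA and 1 was lower, with a median log2 fold change of 0.67. Of all 17285 genes tested, 57.9% were called, 29.3% higher and 28.6% lower, with a median of 0.02. Ranges did not overlap for 23 and 1 of the histone genes, against 31.9% and 33% of all genes. With TSA, 17 of 36 tested histone genes were higher in WUS-GR than Col-0 and 5 were lower, with a median of 0.25. Over all 16873 genes, 54.8% were called, 27% higher and 27.8% lower, with a median of -0.01. Ranges did not overlap for 17 and 5 of the histone genes, against 31.1% and 31% of all genes. Scaled by library totals alone, which moves the median of all genes to -0.24, this split became 12 higher and 7 lower, as the calls of HTA2, HTB4, AT2G37470, AT3G27360 and AT1G07820 were lost and HTB9 and AT5G10980 were called lower. The histone genes higher in WUS-GR under both treatments numbered 16, which is 69.6% of those higher without TSA and 94.1% of those higher with TSA. The matching overlap over all tested genes was not computed, so this overlap cannot be read as a trait of histone genes. These counts leave out the genes that the filter removed, and 4 histone genes were tested in no comparison.

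The filter asks for about 10 counts in 3 libraries, so a gene that is low in one group can enter through the other alone. Without TSA, this held for 5 of the genes called between genotypes (HTA6, AT1G09200, AT5G10390, HTR12 and AT5G59970), and with TSA for HTA11. For the TSA effect it held for AT3G09480 in WUS-GR and for HTA6, AT1G09200 and AT5G59970 in Col-0. Entering in this way favours a call, so these calls give the counts no support. With at least 10 counts required in every library, 18 of 30 tested histone genes were higher and 1 lower in WUS-GR without TSA, and 17 and 4 of 34 with TSA. Of all genes, 58.8% and 55.4% were called there in either direction. On that requirement, 31 of 34 rose and 1 fell with TSA in WUS-GR, and 28 of 31 rose and 0 fell in Col-0, when 74.6% and 65.2% of all genes were called.

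**Figure D2:**
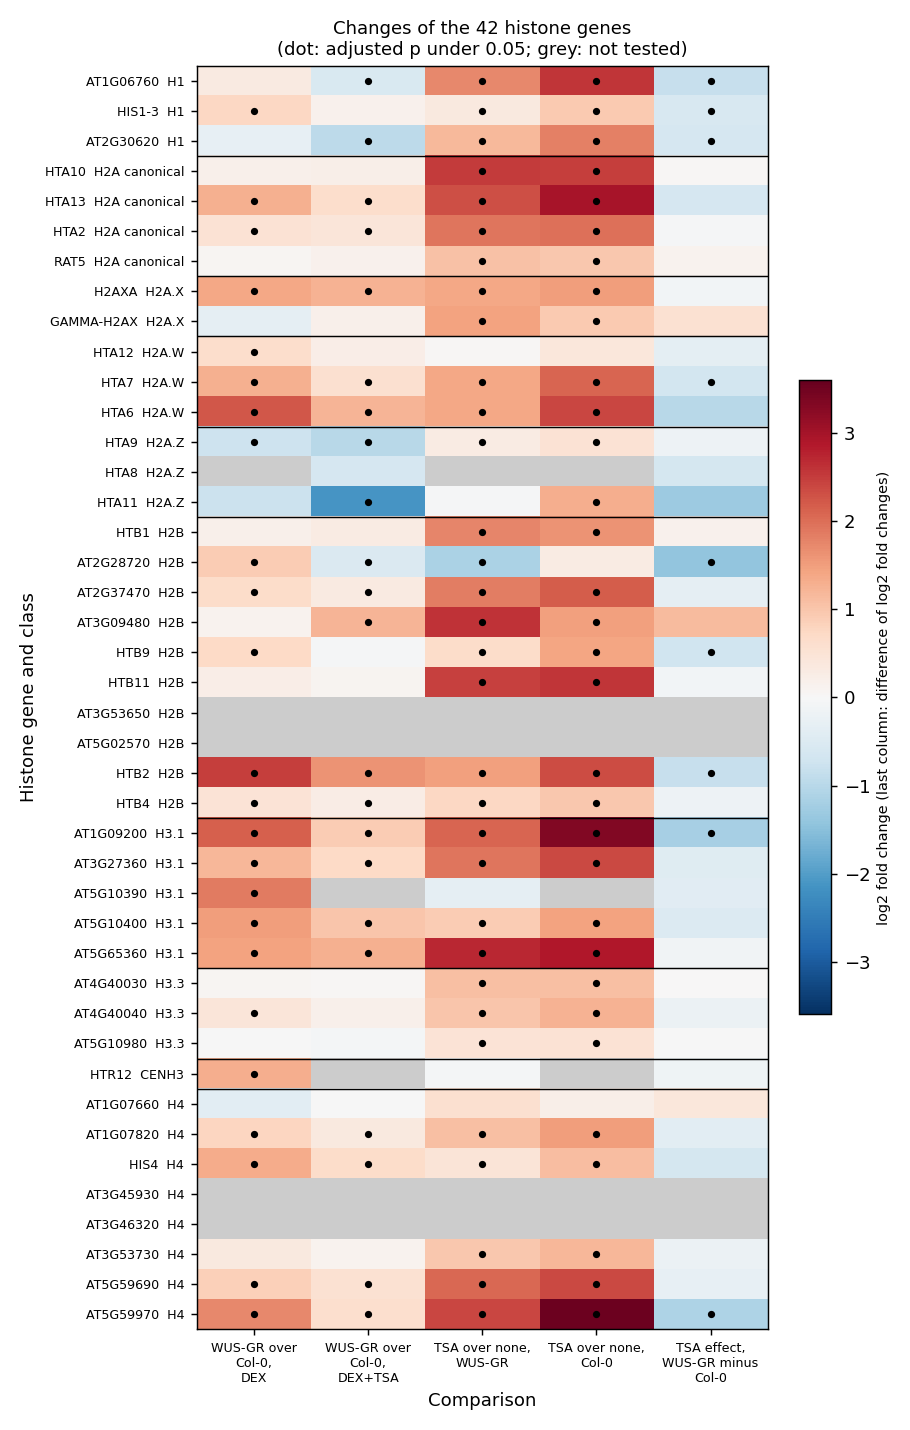
Log2 fold changes (colour) of the 42 histone genes (rows, grouped by class) in the 5 comparisons (columns), with a dot where the adjusted p was under 0.05 and grey where a gene was not tested. Both TSA columns are red for nearly every tested gene up to 3.52, whereas the WUS-GR columns hold rises in H3.1, H2A.W and H2B beside falls in H2A.Z.

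Promoters of plant histone genes are known for an octamer, CGCGGATC, often found beside a hexamer, ACGTCA. In windows from 250 bases before to 50 bases after the annotated gene start, searched on both strands, the octamer was found in 10 of the 42 histone genes (23.8%) and in 40 of 27443 annotated genes (0.146%). The hexamer was in 13 of the 42 (31.0%) and in 9.19% of all. TTAATGG, a motif known to be bound by WUS, was in 8 (19.0%) and in 8.10% of all. Of the E2F motifs, TTTGGCGC was in 2 (4.76%) and in 0.434% of all, and TTTCCCGC in 0 and in 0.798% of all. None of these strings contains another. The following sequences are shown because the octamer occurs in 3 of the 5 H3.1 genes, and 1 gene each of canonical H2A, H2A.W, H4 and H3.3 that has it stands beside them. The octamer genes not shown are AT1G06760 (H1), HTA10 (canonical H2A) and AT1G07660 (H4). Between genotypes without TSA, these were not called (log2 fold changes 0.32, 0.20 and -0.39), whereas all the genes shown were called higher in WUS-GR. Whether the octamer bears on that difference was not tested. The printed sequences are taken from the TAIR10.1 genome, 5′ to 3′ on the strand of the gene, with the octamer or its reverse complement in capitals.
AT1G09200 (H3.1), chr1:2972406-2972435, minus strand: tcgtaccttcaCGCGGATCagtgttagaaa
AT1G09200 (H3.1), chr1:2972335-2972364, minus strand: ctgtgatttcaCGCGGATCgtgatagaaac
AT5G10400 (H3.1), chr5:3271059-3271088, minus strand: ttaacacaggaCGCGGATCgtaaagataca
AT5G65360 (H3.1), chr5:26120689-26120718, minus strand: tttagacgtgaCGCGGATCactaaaattaa
HTA13 (canonical H2A), chr3:7229311-7229340, plus strand: gcagtaacatcGATCCGCGtgattgtttat
HTA6 (H2A.W), chr5:24116318-24116347, minus strand: atacatagtcaCGCGGATCgtgctttattt
AT5G59690 (H4), chr5:24051392-24051421, plus strand: cactgccatcaCGCGGATCactaatatgaa
AT4G40040 (H3.3), chr4:18558944-18558973, minus strand: tttatttcagcGATCCGCGacggtttgtat

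The 10 genes with the octamer had median log2 fold changes of 1.89 with TSA in WUS-GR and 2.46 in Col-0, against 1.08 and 1.41 in the tested genes without it. For WUS-GR over Col-0 the medians were 1.08 without TSA and 0.59 with it, against 0.62 and 0.21. The ranges overlapped widely in each comparison, and the H4 gene AT1G07660, which has the octamer, was called in none. Of the 3 H3.3 genes, only AT4G40040 has it.

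H3.1 and H3.3 differed in how they moved. Without TSA, all 5 H3.1 genes were higher in WUS-GR than Col-0, by log2 fold changes of 1.18 to 2.16, although AT1G09200 and AT5G10390 entered the test only through WUS-GR. The 3 with enough counts in Col-0 gave 1.18 (AT3G27360), 1.46 (AT5G65360) and 1.51 (AT5G10400), while of the 3 H3.3 genes only AT4G40040 was called (0.42 ± 0.10, adjusted p = 0.00407). The summed H3.1 level was 15.8, 16.0 and 15.7 CPM in WUS-GR and 6.49, 5.46 and 5.33 CPM in Col-0, with no overlap. With TSA, the sums were 85.6, 71.1 and 85.9 CPM in WUS-GR and 38.2, 35.6 and 34.5 CPM in Col-0. The ratio of the mean sums, WUS-GR over Col-0, was 2.75 without TSA and 2.24 with it, against 1.199 and 1.098 for H3.3. TSA multiplied the H3.1 sum by 5.11 in WUS-GR and by 6.27 in Col-0, and the H3.3 sum by 1.99 and 2.17.

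AT1G09200, whose promoter holds the octamer at both sites shown, had few counts in Col-0 without TSA. It had 1.19, 2.103 and 1.50 CPM in WUS-GR and 0.499, 0.416 and 0.189 CPM in Col-0, from 26 to 48 counts against 4 to 9 (2.16 ± 0.39, adjusted p = 9.31e-04). With TSA it had 8.26, 5.77 and 6.96 CPM in WUS-GR and 3.92, 3.97 and 3.07 CPM in Col-0 (0.93 ± 0.18, adjusted p = 9.59e-04). The WUS-GR libraries were above the Col-0 libraries under both treatments, and Col-0 with TSA, at 71, 78 and 65 counts, was above Col-0 without it, at 8, 9 and 4 (3.33 ± 0.33, adjusted p = 4.48e-06). The gene entered both comparisons with Col-0 without TSA only through the higher group.

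AT5G65360, the H3.1 gene with the most mRNA, kept its difference between genotypes under TSA. It had 61.7, 52.5 and 62.5 CPM in WUS-GR and 23.0, 24.6 and 24.3 CPM in Col-0 with TSA (1.28 ± 0.10, adjusted p = 4.28e-07). Without TSA it had 9.23, 8.68 and 8.44 CPM in WUS-GR and 3.62, 2.92 and 3.25 CPM in Col-0 (1.46 ± 0.13, adjusted p = 1.14e-05). The 4 groups did not overlap, and TSA raised the gene 6.60-fold in WUS-GR and 7.40-fold in Col-0. AT5G10400 and AT3G27360 rose with TSA in both genotypes as well. AT3G27360 shares 328 bp on the same strand with AT3G27380, and its call in WUS-GR with TSA (0.72) was lost without Col-0 replicate 2 or 3 or WUS-GR replicate 1.

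AT5G10390, which lies next to AT5G10400 on chromosome 5, did not follow TSA. It had 9, 11 and 11 counts in WUS-GR with TSA and 20, 18 and 17 in WUS-GR without it, and its log2 fold change of -0.32 did not pass (adjusted p = 0.370). In Col-0 it had 8, 2 and 4 counts with TSA and 4, 5 and 4 without it, too few to be tested.

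All 3 H3.3 genes rose with TSA in both genotypes. AT4G40040 had 875, 786 and 868 CPM in WUS-GR and 781, 654 and 796 CPM in Col-0 with TSA, against 423, 376 and 452 CPM in WUS-GR and 346, 319 and 283 CPM in Col-0 without it. Its genotypes overlapped with TSA and did not without it. AT4G40030 doubled with TSA, by 1.08 in WUS-GR and 1.08 in Col-0 on the log2 scale. AT5G10980 rose by 0.48 and 0.53, and the call in WUS-GR was lost when counts were scaled by library totals alone (0.10, adjusted p = 0.325). None of the H3.3 genes passed the test of a different TSA effect in the 2 genotypes. The share of H3.1 in the summed CPM per kb of H3.1 and H3.3 was 10.8% ± 0.469 in WUS-GR and 5.55% ± 0.544 in Col-0 with TSA (SD, n = 3 each). With DEX alone, it was 4.40% ± 0.345 in WUS-GR and 1.91% ± 0.109 in Col-0.

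CENH3, the histone that marks centromeres, is encoded by HTR12 and had few counts. WUS-GR without TSA had 10, 10 and 14 counts and Col-0 1, 5 and 6 (1.32 ± 0.48, adjusted p = 0.0374). The gene entered the test only through the group where it was higher. Leaving out Col-0 replicate 1 or 2 or WUS-GR replicate 1 or 2 ended the call, with log2 fold changes of 0.98 to 1.66 over the 5 fits in which it was tested. DESeq2, the fit without a filter, the replicate block and the single fit of 12 libraries ended it too.

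Within H2A, genes moved in opposite directions. HTA9, an H2A.Z gene that held 98.8% to 99.4% of the H2A.Z CPM in each group, was, without TSA, the one histone gene called lower in the transgenic seedlings. Canonical H2A, H2A.X and H2A.W genes that were called were higher. H2A.Z made up 46.1% ± 0.427 of all H2A CPM per kb in WUS-GR and 72.9% ± 3.75 in Col-0 with TSA (SD, n = 3 each), and 67.6% ± 1.13 in WUS-GR and 87.0% ± 0.231 in Col-0 with DEX alone.

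**Figure D3:**
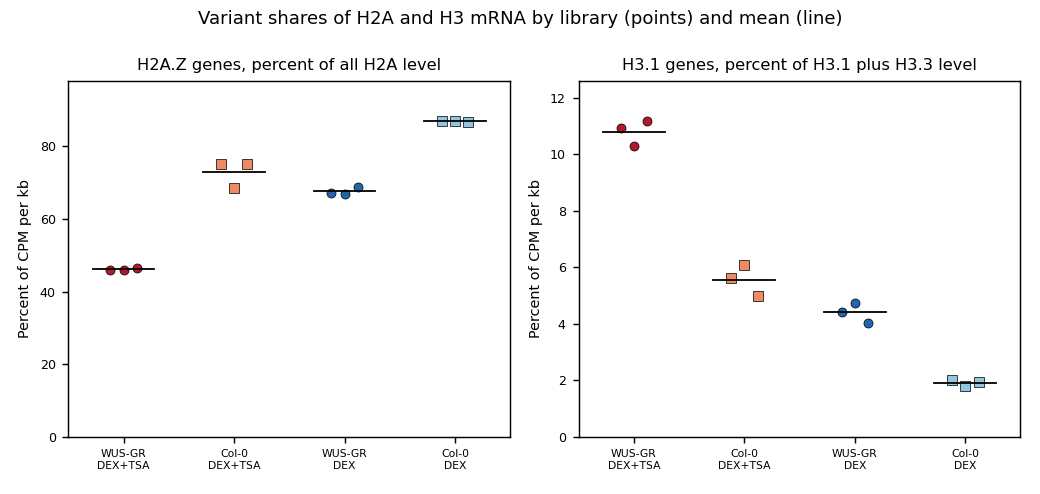
Share of H2A.Z in the summed CPM per kb of all 12 H2A genes (left) and of H3.1 in that of H3.1 and H3.3 (right), in percent, in the 4 groups; points are libraries and lines means of 3. The H2A.Z share was lower in WUS-GR than Col-0 under both treatments with no overlap, and the H3.1 share was higher with no overlap.

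HTA9 had 123, 119.9 and 144 CPM in WUS-GR and 258, 212 and 196 CPM in Col-0 with DEX alone (-0.76 ± 0.11, adjusted p = 2.95e-04). With TSA it had 169.8, 148 and 162 CPM in WUS-GR and 375, 251 and 319 CPM in Col-0 (-0.99 ± 0.13, adjusted p = 3.51e-05). All WUS-GR libraries were below all Col-0 libraries. The rise with TSA was small, 0.29 in WUS-GR and 0.51 in Col-0, and in Col-0 the ranges overlapped. In WUS-GR it turned to -0.09 when counts were scaled by library totals alone, which moves the median of all genes in that comparison to -0.41.

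HTA11, another H2A.Z gene, had 13, 7 and 9 counts in WUS-GR and 62, 42 and 55 in Col-0 with TSA. That is 0.767, 0.396 and 0.720 CPM in WUS-GR and 3.42, 2.14 and 2.60 CPM in Col-0 (-2.13 ± 0.32, adjusted p = 1.25e-04), the largest fall of any histone gene, although it entered the test only through Col-0. Without TSA it had 0.413, 0.832 and 0.619 CPM in WUS-GR and 1.37, 1.296 and 0.660 CPM in Col-0, and the difference did not pass (-0.78 ± 0.38, adjusted p = 0.101). TSA raised it in Col-0 (1.31 ± 0.31, adjusted p = 0.00318) but gave -0.03 in WUS-GR (adjusted p = 0.942), and the test of that difference missed the threshold (-1.31 ± 0.53, adjusted p = 0.0706). HTA8, the third H2A.Z gene, had 3 to 29 counts in a library and was called nowhere.

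Of the H2A.W genes, HTA7 and HTA12 were higher in WUS-GR without TSA, and HTA6 was called on few counts. HTA6 had 1.29, 0.964 and 1.15 CPM in WUS-GR and 0.374, 0.231 and 0.142 CPM in Col-0, from 22 to 28 counts against 3 to 6 (2.24 ± 0.38, adjusted p = 6.63e-04), and entered the test only through WUS-GR. HTA7, the most abundant of the 3, had 13.7, 11.96 and 14.1 CPM in WUS-GR and 6.36, 5.41 and 5.000 CPM in Col-0 (1.28 ± 0.13, adjusted p = 1.75e-05). With TSA, HTA7 had 38.2, 33.7 and 34.9 CPM in WUS-GR and 26.7, 20.17 and 24.7 CPM in Col-0 (0.57 ± 0.11, adjusted p = 0.00112). Both genes were above Col-0 in every WUS-GR library. HTA12 was called without TSA (0.62 ± 0.18, adjusted p = 0.0123) and not with it (0.24), and the call was lost without WUS-GR replicate 3 (0.50, adjusted p = 0.0528).

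H2AXA, 1 of the 2 genes for the DNA damage variant H2A.X, rose by nearly the same factor under every comparison. It had 92.1, 76.2 and 79.4 CPM in WUS-GR and 33.0, 36.9 and 33.4 CPM in Col-0 with TSA (1.25 ± 0.10, adjusted p = 5.48e-07). With DEX alone it had 29.4, 32.1 and 32.3 CPM in WUS-GR and 14.2, 11.6 and 11.04 CPM in Col-0 (1.38 ± 0.11, adjusted p = 3.63e-06). The genotypes did not overlap under either treatment, and the TSA effect was 1.38 in WUS-GR and 1.50 in Col-0. The other H2A.X gene, GAMMA-H2AX, was not called between genotypes (-0.31 without TSA and 0.19 with it) and rose with TSA (1.45 in WUS-GR and 0.94 in Col-0). It overlaps genes on the other strand by 499 bp.

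The largest rises of the class with TSA were those of canonical H2A genes. HTA10 had 16.0, 14.6 and 15.0 CPM in WUS-GR with TSA and 2.71, 2.63 and 2.56 CPM in WUS-GR without it (2.50 ± 0.12, adjusted p = 4.68e-09). In Col-0, HTA13 had 21.4, 23.2 and 15.8 CPM with TSA and 3.62, 1.94 and 2.36 CPM without it (2.96 ± 0.22, adjusted p = 5.16e-07). All libraries with TSA lay above those without it for both genes. Between genotypes, HTA13 was higher in WUS-GR, by 1.29 without TSA and 0.65 with it, and HTA10 was called under neither treatment (0.20 and 0.20). HTA2 was called higher under both (0.52 and 0.45), but the call without TSA was lost without replicate 1 or 2 of Col-0 or 1 or 3 of WUS-GR (0.43 to 0.57), and that with TSA without replicate 2 or 3 of Col-0 or 1 or 2 of WUS-GR (0.34 to 0.61). The call without TSA was also lost with the replicate block (0.52, adjusted p = 0.0649) and by DESeq2 (0.50, adjusted p = 0.133), and that with TSA under library totals alone (0.22, adjusted p = 0.223). RAT5, whose loss was first known for resistance to Agrobacterium transformation, was not called between genotypes and rose with TSA, by 1.06 in WUS-GR and 0.97 in Col-0.

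H2B held the largest rise in WUS-GR of all histone genes and the single gene that fell with TSA. HTB2 had 19.8, 15.8 and 18.5 CPM in WUS-GR and 4.12, 3.38 and 2.41 CPM in Col-0 with DEX alone, 5.62-fold higher (2.49 ± 0.17, adjusted p = 1.81e-06). With TSA it had 54.5, 45.5 and 52.1 CPM in WUS-GR and 19.4, 14.9 and 15.1 CPM in Col-0 (1.61 ± 0.12, adjusted p = 3.99e-07). The lowest WUS-GR library was above the highest Col-0 library under both treatments. TSA raised HTB2 by 1.47 in WUS-GR and 2.34 in Col-0.

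AT2G28720 behaved otherwise. It had 7.20, 6.50 and 6.88 CPM in WUS-GR with TSA and 15.2, 14.0 and 15.6 CPM in WUS-GR without it (-1.14 ± 0.11, adjusted p = 1.14e-06), with no overlap. In Col-0 it had 9.55, 7.29 and 12.7 CPM with TSA and 8.54, 8.65 and 7.12 CPM without it, and the ranges overlapped (0.29 ± 0.19, adjusted p = 0.201). The same values compared by genotype gave a higher level in WUS-GR without TSA (0.91 ± 0.11, adjusted p = 6.66e-05) and a lower one with TSA (-0.53 ± 0.19, adjusted p = 0.0271). The call with TSA was lost without Col-0 replicate 3 or without any of the 3 WUS-GR replicates, with log2 fold changes of -0.71 to -0.30 over the 6 fits.

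Other H2B genes rose with TSA by different amounts. AT3G09480 had 5.19, 4.13 and 3.04 CPM in WUS-GR with TSA and 0.781, 0.789 and 0.442 CPM without it (2.61 ± 0.29, adjusted p = 5.05e-06), from 38 to 88 counts against 10 to 18, and entered the test only through the libraries with TSA. HTB11 had 122, 119.9 and 121 CPM in Col-0 with TSA and 22.3, 19.2 and 19.4 CPM without it (2.58 ± 0.09, adjusted p = 1.05e-08). Each library with TSA was above each without it for both genes. HTB11 was not called between genotypes (0.23 without TSA and 0.10 with it), whereas AT3G09480 was higher in WUS-GR with TSA (1.23 ± 0.23, adjusted p = 7.19e-04). HTB4, the H2B gene with the most mRNA per kb in Col-0 without TSA, rose less, by 0.76 in WUS-GR and 0.97 in Col-0. HTB4 was also higher in WUS-GR with TSA (0.26), a call lost without replicate 2 or 3 of Col-0 or 1 or 3 of WUS-GR (0.20 to 0.34), as was AT2G37470 (0.32), lost without WUS-GR replicate 1 (adjusted p = 0.0552). HTB1 and AT2G37470 rose by 1.75 and 1.85 in WUS-GR and by 1.62 and 2.18 in Col-0.

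HTB9 was higher in WUS-GR than Col-0 without TSA (0.72 ± 0.10, adjusted p = 2.13e-04) and not called with it (-0.03, adjusted p = 0.776). It had 39.6, 35.1 and 40.5 CPM in WUS-GR and 40.9, 36.8 and 39.2 CPM in Col-0 with TSA, against 22.8, 22.0 and 26.6 CPM in WUS-GR and 15.5, 15.1 and 13.5 CPM in Col-0 without it. The genotypes overlapped with TSA only. HTB9 shares 271 bp with genes on the other strand.

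**Figure D4:**
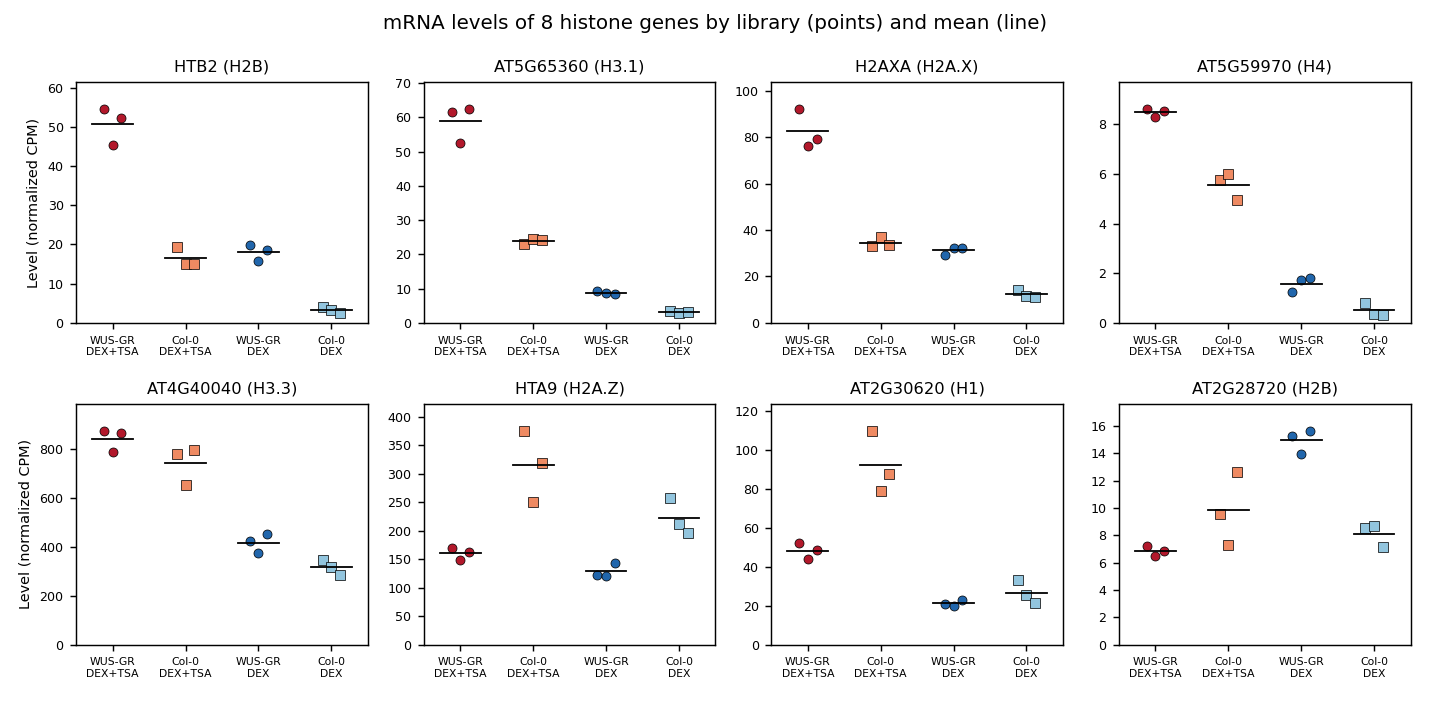
TMM-normalized CPM (vertical axis, from 0) of 8 histone genes in the 4 groups (horizontal axis); points are libraries and lines means of 3. HTB2, AT5G65360 and H2AXA were higher in WUS-GR than Col-0 with and without TSA, HTA9 was lower, and AT2G28720 was highest in WUS-GR without TSA (13.98 to 15.6 CPM).

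H4 genes encode the same core histone from 8 loci here. The summed H4 level was 148, 133 and 145 CPM in WUS-GR and 117, 90.5 and 95.7 CPM in Col-0 with TSA, against 43.2, 39.6 and 50.4 CPM in WUS-GR and 33.5, 22.7 and 23.6 CPM in Col-0 without it. WUS-GR libraries were above Col-0 libraries under both treatments. Of 6 tested genes, 4 were higher in WUS-GR without TSA and 4 with TSA, against 29.3% and 27% of all genes. With TSA, 5 of 6 rose in each genotype, against 35.6% of all genes in WUS-GR and 31.7% in Col-0. Stretches of 50 bases that occur once in the genome made up 69.2% to 80.6% of the exons of AT1G07660, AT1G07820, AT3G45930 and AT3G46320, so reads of these genes are less certain, since the handling of reads with several matches is not given in the sources used here.

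AT5G59970 entered the comparisons with Col-0 without TSA only through the higher group. With TSA it had 8.62, 8.31 and 8.56 CPM in WUS-GR and 5.74, 6.01 and 4.96 CPM in Col-0. With DEX alone it had 1.24, 1.71 and 1.81 CPM in WUS-GR and 0.811, 0.370 and 0.330 CPM in Col-0, from 27 to 41 counts against 7 to 13 (1.73 ± 0.36, adjusted p = 0.00243). The groups did not overlap in any of these comparisons, and TSA raised the gene 5.25-fold in WUS-GR and 11.5-fold in Col-0 (3.52 ± 0.30, adjusted p = 1.40e-06).

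HIS4 had 6.08, 6.33 and 5.998 CPM in WUS-GR and 3.76, 3.21 and 4.53 CPM in Col-0 with TSA (0.66 ± 0.17, adjusted p = 0.00527), the largest H4 difference between genotypes under TSA. Without TSA it had 4.13, 3.86 and 5.08 CPM in WUS-GR and 2.99, 1.296 and 1.18 CPM in Col-0 (1.33 ± 0.31, adjusted p = 0.00484). The genotypes did not overlap under either treatment. HIS4 (AT2G28740) rose with TSA by 0.48 in WUS-GR and 1.12 in Col-0, and the call in WUS-GR was lost under library totals alone (0.09, adjusted p = 0.578) and in the single fit of 12 libraries (0.49, adjusted p = 0.0769). AT5G59690, the H4 gene with the highest level per kb in every group, was higher in WUS-GR by 0.86 without TSA and 0.54 with it, and rose with TSA by 2.06 in WUS-GR and 2.38 in Col-0. AT1G07820 was higher in WUS-GR by 0.76 without TSA and 0.34 with it, where the call was lost without replicate 2 or 3 of Col-0 or 1 or 3 of WUS-GR (0.24 to 0.47). AT3G53730 rose with TSA (0.97 and 1.199) and was not called between genotypes.

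The 3 linker histone genes rose with TSA in both genotypes, by 0.35 to 1.72 in WUS-GR and by 0.94 to 2.58 in Col-0 on the log2 scale. The summed H1 level was 184, 157 and 180.4 CPM in WUS-GR and 251, 192 and 219 CPM in Col-0 with TSA, against 102, 97.3 and 114 CPM in WUS-GR and 95.8, 76.3 and 64.6 CPM in Col-0 with DEX alone. HIS1-3, which encodes the H1 variant known for its induction by drought, had 72.1, 68.3 and 83.5 CPM in WUS-GR and 52.9, 44.7 and 37.6 CPM in Col-0 without TSA (0.76 ± 0.12, adjusted p = 5.24e-04), with no overlap. With TSA it had 102, 86.2 and 102 CPM in WUS-GR and 92.7, 73.0 and 93.0 CPM in Col-0, and the ranges overlapped (0.15 ± 0.11, adjusted p = 0.260). Its rise with TSA in WUS-GR (0.35 ± 0.09, adjusted p = 0.00502) turned to -0.03 when counts were scaled by library totals alone.

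The other H1 genes were lower in WUS-GR under TSA. AT2G30620 had 52.2, 43.8 and 48.5 CPM in WUS-GR and 109.8, 78.7 and 87.7 CPM in Col-0 (-0.95 ± 0.12, adjusted p = 3.33e-05). Without TSA it had 21.0, 19.6 and 22.8 CPM in WUS-GR and 33.0, 25.4 and 21.5 CPM in Col-0, which overlapped (-0.30 ± 0.14, adjusted p = 0.0938). AT1G06760 had 29.6, 27.5 and 30.3 CPM in WUS-GR and 48.4, 40.6 and 38.2 CPM in Col-0 with TSA (-0.55 ± 0.11, adjusted p = 7.95e-04), all WUS-GR libraries being lower. With DEX alone it had 9.14, 9.38 and 7.65 CPM in WUS-GR and 9.98, 6.11 and 5.52 CPM in Col-0, and the ranges overlapped (0.32 ± 0.21, adjusted p = 0.210). It rose 3.29-fold with TSA in WUS-GR and 5.995-fold in Col-0, and shares 486 bp with genes on the other strand.

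Whether TSA acted differently in the 2 genotypes was tested as an interaction in a fit of all 12 libraries, where a negative value means a smaller rise with TSA in WUS-GR than in Col-0. Of 38 tested histone genes, 9 passed with a negative value and 0 with a positive one. By DESeq2 the numbers were the same, and at an unadjusted p under 0.05 edgeR gave 11 negative and 1 positive. Of all 17915 genes tested, 31% passed, 13.3% with a negative and 17.7% with a positive value. Negative values, passed or not, were found for 81.6% of the tested histone genes and 49.8% of all tested genes. Scaled by library totals alone, which moves the median of all genes to -0.32, 24 histone genes passed with a negative value, and 40.8% of all genes passed in either direction. With at least 10 counts required in every library, 7 of 30 tested histone genes passed with a negative value and 0 with a positive one. On that requirement, 35.5% of all 14696 genes tested passed in either direction.

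The 9 genes came from H1, H2A, H2B, H3 and H4. AT2G28720 (H2B) had the largest value (-1.41 ± 0.23, adjusted p = 2.83e-04). HTB9 (-0.72 ± 0.14, adjusted p = 0.00106), HTA7 (-0.67 ± 0.17, adjusted p = 0.00756) and HTB2 (-0.84 ± 0.22, adjusted p = 0.00870) followed by adjusted p. All 3 linker histone genes passed: AT1G06760 (-0.84 ± 0.23, adjusted p = 0.0130), HIS1-3 (-0.57 ± 0.18, adjusted p = 0.0252) and AT2G30620 (-0.61 ± 0.20, adjusted p = 0.0343). The others were AT5G59970 of H4 (-1.105 ± 0.35, adjusted p = 0.0245) and AT1G09200 of H3.1 (-1.204 ± 0.42, adjusted p = 0.0415). Both were low in Col-0 without TSA, at 7 to 13 and 4 to 9 counts, and entered the test only through other groups. These calls give the count no support. The calls of AT2G28720, HTB9, HTA7, HTB2 and AT1G06760 held without any 1 of the 12 libraries. Those of AT1G09200, AT2G30620, HIS1-3 and AT5G59970 were lost in 8, 7, 5 and 4 of the 12 fits that left out 1 library, whose values ran from -1.44 to -0.87, from -0.78 to -0.47, from -0.69 to -0.45 and from -1.55 to -0.88 for these genes in that order, and all 4 were lost without Col-0 replicate 2, Col-0 replicate 3 or WUS-GR replicate 3 of the libraries with DEX alone.

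**Figure D5:**
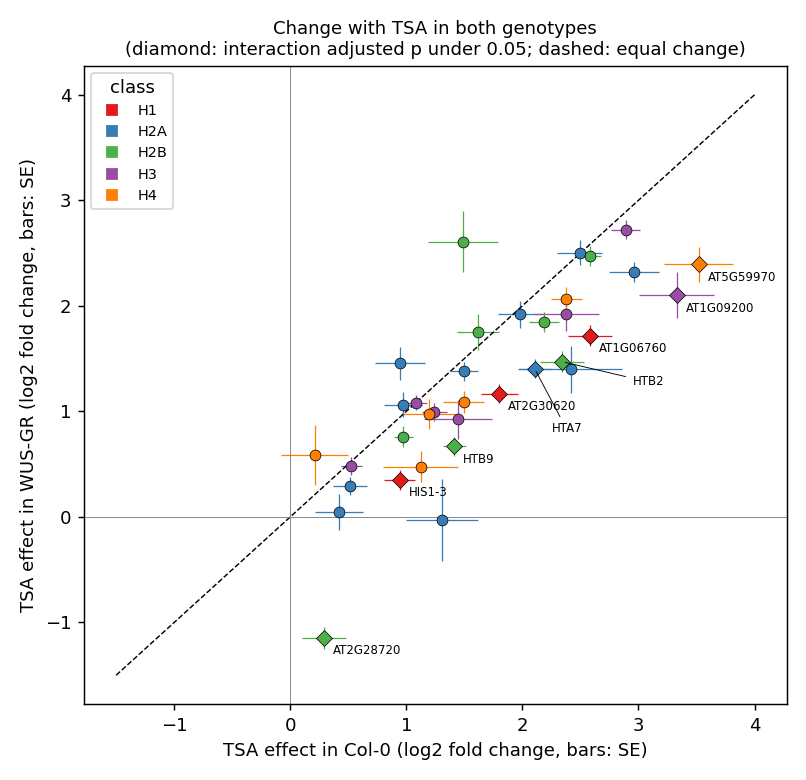
Log2 fold change with TSA in WUS-GR (vertical axis) against that in Col-0 (horizontal axis) for the 35 histone genes tested in both; bars are standard errors, colours are classes, diamonds are genes whose interaction passed, and the dashed line marks equal change. Most points lie below the line, and AT2G28720 is the only called gene below 0 in WUS-GR.

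Genes that act with histones were read from lists of other functions. Of 26 S-phase genes, 10 of 18 tested were higher and 2 lower in WUS-GR without TSA, and 13 of 19 were higher with TSA, when 29.3% of all genes were higher and 28.6% lower without TSA and 27% higher with it. Of the 10, MCM2, PRL, ICU2 and POLA2 entered the test only through WUS-GR. The largest called rise without TSA was that of PRL, which encodes the replicative helicase subunit MCM7, with 1.15, 1.75 and 1.64 CPM in WUS-GR and 0.624, 0.694 and 0.0943 CPM in Col-0 (1.73 ± 0.47, adjusted p = 0.0106), and the largest fall that of the cell cycle transcription factor gene E2F3 (-0.53 ± 0.20, adjusted p = 0.0445). The fall of E2F3 was lost without replicate 1 or 2 of Col-0 or 1 or 3 of WUS-GR (-0.66 to -0.41) and by DESeq2. Library totals alone, the fit without a filter and the replicate block ended it too. With TSA, TSO2, a subunit of ribonucleotide reductase, led (8.91, 6.39 and 7.998 CPM in WUS-GR and 3.59, 3.31 and 3.50 CPM in Col-0, 1.15 ± 0.17, adjusted p = 1.01e-04). Of 20 mitotic genes, 6 of 11 tested were higher and 0 lower in WUS-GR without TSA, and 3 of 10 higher and 0 lower with it. Without TSA that is 54.5%, all higher, against 29.3% of all genes higher and 57.9% called in either direction. With TSA it is 30%, all higher, against 27% of all genes higher and 54.8% called in either direction. CDKB2;1, SYP111, AUR1 and AUR2 entered only through WUS-GR without TSA, and AUR1 and AUR2 also with it. The largest rise was that of the Aurora kinase gene AUR2 (1.90 ± 0.35, adjusted p = 0.00103 without TSA and 2.28 ± 0.34, adjusted p = 1.08e-04 with it).

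With TSA, 8 of 19 tested S-phase genes rose in WUS-GR and 2 fell, and 8 of 18 rose in Col-0 and 3 fell. The shares called, 52.6% and 61.1%, were below those of all genes, 73.7% and 64.2%. E2F3 led in WUS-GR (2.50 ± 0.15, adjusted p = 2.65e-08) and PRL in Col-0 (1.46 ± 0.50, adjusted p = 0.0233, lost without Col-0 replicate 3 of DEX alone or replicate 1 or 2 of TSA, with 0.94 to 1.93), while RNR1, the large subunit of ribonucleotide reductase, fell most in both (-1.05 and -1.01). Of all genes, 35.6% rose and 38.1% fell in WUS-GR, and 31.7% and 32.5% in Col-0. Of the mitotic genes, 4 of 10 rose in WUS-GR and 7 of 9 in Col-0, and 0 fell in either, 40% and 77.8% called. The largest rises were those of the microtubule-associated EDE1 (2.34 and 2.50), which in Col-0 entered only through the libraries with TSA, as did PRL. The interaction passed for E2F3 (1.57 ± 0.24, adjusted p = 1.91e-04), PRL (-1.64 ± 0.57, adjusted p = 0.0418) and, of the mitotic genes, for CDKB2;1 (-1.55 ± 0.47, adjusted p = 0.0207), a mitotic cyclin-dependent kinase. In all, 3 of 20 tested S-phase genes passed with a positive and 1 with a negative value, and 0 and 1 of 11 mitotic genes, 20% and 9.09% called against 31% of all genes. Of all genes, 17.7% passed with a positive and 13.3% with a negative value. The interaction of PRL was lost in 8 of 12 fits that left out 1 library (-2.11 to -1.12), and that of CDKB2;1 without Col-0 replicate 2 of DEX alone or replicate 1 of TSA (-1.93 to -1.24).

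Histone chaperones and exchange factors make up a list of 24 genes. In WUS-GR, 7 of 22 tested were higher and 4 lower than in Col-0 without TSA, and 12 were higher and 3 lower with it. Of all genes, 29.3% were higher and 28.6% lower without TSA, and 27% and 27.8% with it. Called in either direction were 50% of the tested chaperone genes against 57.9% of all genes without TSA, and 68.2% against 54.8% with it. The largest fall under both treatments was that of SEF, a subunit of the SWR1 complex that places H2A.Z in chromatin, with 4.13, 5.78 and 4.91 CPM in WUS-GR and 7.23, 7.50 and 9.10 CPM in Col-0 with DEX alone (-0.66 ± 0.16, adjusted p = 0.00540) and -0.87 with TSA. SEF also fell most with TSA in WUS-GR (-1.71 ± 0.21, adjusted p = 1.12e-05). The largest rises were those of AT5G02520 without TSA (11, 10 and 16 counts in WUS-GR and 2, 8 and 2 in Col-0, 1.44 ± 0.52, adjusted p = 0.0359) and of ASF1B, a chaperone of H3 and H4, with TSA (18, 12 and 12 counts in WUS-GR and 6, 4 and 4 in Col-0, 1.87 ± 0.42, adjusted p = 0.00217), both entering the test only through WUS-GR. The call of AT5G02520 was lost in 4 of the 5 fits without 1 library in which it was tested (1.07 to 2.30) and by DESeq2. The fit without a filter, the replicate block and the single fit of 12 libraries ended it too.

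With TSA, 9 of 24 tested chaperone genes rose in WUS-GR and 7 fell, led by the rise of AT1G77310 (1.74 ± 0.16, adjusted p = 9.49e-07). In Col-0, 7 of 21 rose and 6 fell. The shares called, 66.7% and 61.9%, were below those of all genes, 73.7% and 64.2%. Of all genes, 35.6% rose and 38.1% fell in WUS-GR, and 31.7% and 32.5% in Col-0. FAS1, a subunit gene of the complex CAF-1 that deposits H3.1 during replication, had 1.27, 1.12 and 0.850 CPM with TSA and 3.24, 3.98 and 3.44 CPM without it in Col-0 (-1.72 ± 0.24, adjusted p = 7.60e-05). Its partner gene FAS2 had 17, 19 and 14 counts with TSA and 8, 5 and 2 without it in Col-0 (1.70 ± 0.49, adjusted p = 0.0102), and entered the test only through the libraries with TSA. The interaction passed with a positive value for 6 of 24 chaperone genes and with a negative one for 0. That is 25%, all positive, against 17.7% of all genes positive and 13.3% negative, 31% in either direction. FAS1 had the largest value of the chaperone genes (1.31 ± 0.30, adjusted p = 0.00389). Of 7 histone genes that do not belong to the 42, only HTA4 was abundant enough to be tested, and it was lower in WUS-GR with TSA (-0.93 ± 0.36, adjusted p = 0.0457), with overlapping ranges. That call was lost without replicate 2 or 3 of Col-0 or 1 or 3 of WUS-GR (-1.26 to -0.62) and by DESeq2.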

How the data were processed

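RNA-seq libraries of 3 replicates in each of 4 groups were analysed, grouped by the sample labels. The authors aligned reads to TAIR10 with HISAT2 and deposited raw counts per gene from featureCounts, without normalization; the annotation release, strand setting and handling of reads with several matches are not given in the sources used here. All 12 columns were used (0 left out). Genes kept by filterByExpr (minimum count 10) were tested with the two-sided quasi-likelihood F-test of edgeR 4.0.16 after TMM scaling, with Benjamini-Hochberg adjustment over all genes tested and a threshold of 0.05. Pairwise comparisons used 6 libraries and the interaction 12. SE is the log2 fold change divided by the square root of F. Levels are TMM-scaled CPM over 12 libraries, per kb of exon in TAIR10.1 where genes are compared.

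Total counts of 14810658 to 21578662 put 3 counts at 0.131 to 0.240 CPM, which covers counting error only. Replicates differed beyond sampling noise (chi-square over its degrees of freedom, 6.98 to 16.1). The members and lists were chosen with earlier results of these data known. All 42 genes could be named; values in every library are given for the called member with the largest rise and fall per class and comparison, for the largest interaction per class, and for members that a comparison turns on, chosen after their values were seen. Of the other lists, the largest called rise and fall are named. Alternatives were other scalings, filters, a replicate block, DESeq2 1.42.0, a single fit of 12 libraries and leaving out each library. The procedures for WUS-GR over Col-0 without TSA and for the interaction were tested on simulated data. Changes were set there in a small part of the genes, all with many counts. The simulation therefore does not bear on genes with few counts or on the scaling when much of the transcriptome moves. R 4.3.3, limma 3.58.1 and Python 3.11.15 were used. Promoter windows, sequences and overlaps come from the TAIR10.1 genome and RefSeq annotation.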

Additional observations from a re-analysis of the deposited data

Results flagged for a closer look

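The change with TSA differed between WUS-GR and Col-0 for 9 of 38 tested histone genes, by the test of the interaction itself in edgeR. That is 23.7%, all negative, and below the 31% of all tested genes that passed (13.3% negative and 17.7% positive). In 8 of the 9 histone genes TSA raised the gene in both genotypes, and less in WUS-GR. The differences on the log2 scale, WUS-GR minus Col-0, were -0.84, -0.61 and -0.57 for the linker histone genes AT1G06760, AT2G30620 and HIS1-3 (AT2G18050), -0.67 for HTA7 (AT5G27670), -0.84 for HTB2 (AT5G22880), -0.72 for HTB9 (AT3G45980), -1.204 for AT1G09200 and -1.105 for AT5G59970. In the ninth, the H2B gene AT2G28720, TSA gave -1.14 in WUS-GR and 0.29 in Col-0, a difference of -1.41 (adjusted p = 2.83e-04). AT1G09200 and AT5G59970 had few counts in Col-0 without TSA and entered the test only through other groups. The scaling factors of the WUS-GR libraries with TSA, 0.842 to 0.850, stood apart from those of the other libraries, and their part in these differences was not tested beyond the scalings given under the processing.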

How the results depend on the processing

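The counts of called histone genes stayed within 1.5 times under other scalings, filters, DESeq2, a single fit of all libraries and leaving out single libraries, except as follows. Library totals alone gave 24 rather than 9 genes with a negative interaction, and the TSA effect in WUS-GR turned to -0.0324 for HIS1-3 (AT2G18050) and -0.0905 for HTA9 (AT1G52740); this scaling moves the median of all genes to -0.32 and -0.41 in these comparisons. Under it, 27 rather than 31 histone genes rose with TSA in WUS-GR, those lost being HIS1-3, HTA9, AT5G10980 and HIS4 (AT2G28740). With 1 library left out, 5 to 12 genes had a negative interaction and 0 to 1 a positive one, and 1 to 4 genes were lower in WUS-GR without TSA. The 4 were HTA9, AT2G30620 (-0.44), GAMMA-H2AX (AT1G54690, -0.52) and HTA11 (AT3G54560, -1.06), all without Col-0 replicate 3. The positive interaction was that of GAMMA-H2AX (AT1G54690) without Col-0 replicate 3 of DEX alone (0.75) and of AT3G09480 without WUS-GR replicate 3 of TSA (1.29). The cause was not tested. The named genes of other lists were run under the same settings, a choice made after seeing the data. Without 1 library, 21 of 24, 16 of 22, 32 of 32 and 32 of 32 calls held in every fit for WUS-GR without and with TSA and for TSA in WUS-GR and in Col-0, and 5 of 9 for the interaction.

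Same-numbered libraries correlated in their deviations from the group means at -0.267 to 0.119, and differently numbered ones at -0.213 to 0.202. Deviations from a mean of 3 libraries depend on each other, so these values cannot show whether the replicate numbers pair the samples. With the number as a replicate block, 21 histone genes were higher and 1 lower in WUS-GR without TSA, 17 and 5 with TSA, 32 and 1 with TSA in WUS-GR, 32 and 0 with TSA in Col-0, and 0 and 9 in the interaction. Of all genes, 53%, 56.6%, 73.6%, 65.5% and 31.9% were called in either direction in these comparisons, in that order. Genes with fewer than about 10 counts in a group, such as HTR12 (AT1G01370), AT5G10390 and HTA8, are limited by depth.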
